A study of Mus musculus with 3 samples.

Results

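Chil1, Chil3 and Chid1, 3 of the chitinase-like genes of the mouse, were followed across the cell types of the liver in single-cell count data. They were chosen by name as members of the chitinase-like family, and are 3 of 23860 genes that had a column in either count table. All 3 genes had a column in both tables. Liver cells isolated as non-parenchymal cells from mice on the C57BL/6J background were captured with the BD Rhapsody system, and the transcripts of each gene in a cell were counted by unique molecular identifiers (UMIs). The first library held cells of wild-type (WT) mice. Its table reached its sample by elimination, because the sample title read MCD, the table's own header named the library APAP0h, and the study's methods describe a normal chow control, so that its diet was not settled and it is called the WT library here. The second library held cells of WT mice and of Chil1-/- mice, both on the HFHC diet (high fat, high cholesterol), and is called the HFHC pool. The Chil1-/- mice carried a constitutive knockout of the gene followed here, and the table gave no genotype for a cell, so that Chil1 could not be compared between genotypes. How many mice were pooled in either library was not given in the sources used here. Each group was 1 library, no test between groups was possible, and diet, genotype, capture and sequencing run cannot be told apart.

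Chitinase-like proteins have the fold of the enzymes that cut chitin but lack their activity, and several are secreted by myeloid cells as lectins. Chil1 encodes Chi3l1, also known as YKL-40 in humans, which is kept in the specific granules of neutrophils and is secreted by stimulated macrophages. Chil3 encodes Ym1, a protein of alternatively activated macrophages that is also made by immature neutrophils of the marrow and by classical monocytes. Chid1 encodes stabilin-1 interacting chitinase-like protein, which is sorted to lysosomes in macrophages and is transcribed in many tissues. In the liver, Kupffer cells (KCs) are the resident macrophages, and monocyte-derived macrophages (MoMFs) arise from monocytes that leave the blood.

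The 3 genes lie on different chromosomes. In the mouse build GRCm38, the GENCODE annotation places the protein-coding gene Chil1 at chr1:134182176-134190181 on the forward strand, Chil3 at chr3:106147554-106167564 on the reverse strand and Chid1 at chr7:141493136-141539857 on the reverse strand. Chil4, the near copy of Chil3 that encodes Ym2, lay beyond a gap of 33.9 kb. Chil1 lay 30.6 kb from Chit1, the gene of an active chitinase. Because the 3 genes were found in different cells, their promoters are shown first, from 250 bases before to 50 bases after the start of the RefSeq transcript (GRCm38.p6), read 5′ to 3′ on the strand of the gene. The promoter of Chil4 is added because its transcripts share sequence with those of Chil3. Capitals mark the motifs searched for on both strands, and a match on the other strand is capitalized as it stands on the printed one. The sequences come from chr1:134181906-134182205 for Chil1, chr3:106167515-106167814 for Chil3, chr3:106219430-106219729 for Chil4 and chr7:141539779-141540078 for the first of 3 promoters of Chid1.
Chil1: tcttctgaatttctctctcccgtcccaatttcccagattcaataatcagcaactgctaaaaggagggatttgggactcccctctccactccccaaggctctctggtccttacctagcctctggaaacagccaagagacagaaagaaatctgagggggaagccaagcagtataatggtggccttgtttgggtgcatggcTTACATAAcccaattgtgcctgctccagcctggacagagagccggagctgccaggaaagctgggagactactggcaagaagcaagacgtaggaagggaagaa
Chil3: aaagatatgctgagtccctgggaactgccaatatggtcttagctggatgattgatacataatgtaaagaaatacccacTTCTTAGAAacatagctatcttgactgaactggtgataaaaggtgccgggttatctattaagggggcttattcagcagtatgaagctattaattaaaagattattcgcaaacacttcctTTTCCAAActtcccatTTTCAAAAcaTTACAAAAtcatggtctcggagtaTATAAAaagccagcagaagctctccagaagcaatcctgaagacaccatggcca
Chil4: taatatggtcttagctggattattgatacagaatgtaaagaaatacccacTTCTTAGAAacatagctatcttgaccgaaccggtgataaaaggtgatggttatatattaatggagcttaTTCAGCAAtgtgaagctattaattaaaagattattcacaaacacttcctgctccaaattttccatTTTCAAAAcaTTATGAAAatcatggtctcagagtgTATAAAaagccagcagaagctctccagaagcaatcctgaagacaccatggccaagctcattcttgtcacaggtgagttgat
Chid1: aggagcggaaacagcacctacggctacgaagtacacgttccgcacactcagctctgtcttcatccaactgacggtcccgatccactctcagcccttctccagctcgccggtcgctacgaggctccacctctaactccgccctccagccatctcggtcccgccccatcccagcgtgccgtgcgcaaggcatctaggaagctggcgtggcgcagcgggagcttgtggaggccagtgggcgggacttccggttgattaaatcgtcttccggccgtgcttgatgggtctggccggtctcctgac

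The motifs were the TATA box (TATAAA), a C/EBP-type motif (TTNNGNAA), a STAT-type motif (TTCNNNGAA) and a PU.1-type motif (GAGGAA), and they overlapped nowhere in these windows. The Chil1 promoter held 1 match to the C/EBP-type motif, which began 52 bases before the start. The Chil3 promoter held 3 matches to it, which began 53, 37 and 27 bases before the start, and also a STAT-type match at 172 bases and a TATA box at 3 bases before the start. None of these letters was found in the Chid1 promoters, which held 25 to 27 CG pairs, against 3 in those of Chil1 and Chil3 and a median of 7 over 32851 promoters. Of all these promoters, 40.7% held the C/EBP-type motif, 28.3% the PU.1-type motif, 13.6% the TATA box and 8.30% the STAT-type motif. The promoters of Chil3 and Chil4 were identical at 73.5% of 272 bases when set against each other without gaps, at an offset of 28 bases. In Chil4 the TATA box began 31 bases before the start, so that these distances depend on the annotated start of each gene. Of the 75-base stretches of the Chil3 transcripts, 8.26% also occurred in Chil4, so that UMIs of Chil3 and Chil4 could in part have been split by the authors' counting. Only 1 UMI was counted for Chil4 in the kept cells of both libraries together.

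In total, 30734 cells with 53720863 UMIs were deposited for the WT library and 21601 cells with 71981673 UMIs for the pool, with 756 cell indices in common. Cells with 200 to 4000 genes and at most 25% mitochondrial UMIs were kept, which left 23346 and 19625 cells. Clusters took their names from marker genes that did not include the 3 members, and the names used here stand for neutrophil-like, monocyte-like, KC-like cells and so on. In each named class with at least 50 cells, at least 5 of its markers were higher than in the other named cells. A single marker was at 0 in a named class, Ccl17 in the conventional dendritic cells of the second type (cDC2) of the pool. A level is the summed UMI count of a gene in a class, given as CPM (UMIs per 1e6 UMIs of the class), with an exact Poisson 95% interval. All intervals cover counting error only, and not the spread between mice. They treat UMIs as independent, so that they also leave out the clumping of UMIs in single cells.

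Most Chil1 was found in neutrophils in both libraries. In the WT library, 2736 neutrophils held 1901 Chil1 UMIs, or 663 CPM (634 to 694). In the HFHC pool, 292 neutrophils held 178 UMIs, or 279 CPM (239.7 to 323). Neutrophils accounted for 94.1% of the Chil1 UMIs of all named cells in the WT library and for 85.2% in the pool. Over all kept cells the shares were 77.8% and 76.7%, and cells of mixed clusters held 15.4% and 8.62%. The level was 222-fold that of all other named cells together in the WT library (log2 ratio 7.79, 7.53 to 8.07) and 403-fold in the pool (8.65, 8.10 to 9.25). These sizes depended on how cells were classed, and the log2 ratio ran from 6.80 to 8.57 in the WT library and from 6.73 to 9.29 in the pool over the alternatives, where the order of the libraries was not kept with classes from each cell's own markers (6.83 and 6.73).

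The macrophages of the liver held very few Chil1 transcripts. KCs of the WT library held 18 Chil1 UMIs in 18 of 2697 cells, or 1.35 CPM (0.798 to 2.13). KCs of the pool held 0 Chil1 UMIs in 398 cells, which allows up to 0.824 CPM at a limit of 3 UMIs. Neutrophils were 493-fold above KCs in the WT library and at least 339-fold above the limit of 3 UMIs in those of the pool, where the exact interval of the log2 ratio began at 8.09. When all deposited cells were classed by their own marker UMIs instead, KCs had 3.39 CPM (2.48 to 4.52) in the WT library and 0.480 CPM (0.193 to 0.988) in the pool, beside 617.5 and 189 CPM in neutrophils. Of the 835 pool cells classed as KCs in that way, 497 had more than 4000 genes and had therefore been left out, and these held 3 Chil1 UMIs. MoMFs held 0 Chil1 UMIs in 87 WT cells and in 98 pool cells, which allows up to 9.67 and 3.71 CPM, but with own-marker classes over all deposited cells they held 9 UMIs in 100 WT cells, or 17.2 CPM (7.86 to 32.6), and 24 in 395 pool cells, or 4.49 CPM (2.88 to 6.68). The 0 in MoMFs thus did not hold when the class rule and the cell limits were changed together. Non-classical monocytes also held 0 Chil1 UMIs in both libraries, in 100 and 73 cells. An unknown share of the pool's cells came from Chil1-/- mice, so that its levels, limits and ratios are not those of WT cells on the HFHC diet. UMIs measure mRNA at the time of capture and say nothing of the amount of Chi3l1 protein in a cell.

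Below neutrophils, the order of the other classes could hardly be resolved for Chil1. Over the 16 classes of the WT library with at least 50 cells, the second level was 6.02 CPM in cDC2, and endothelial cells followed at 5.97 CPM with 35 UMIs. Hepatocytes had 4.28 CPM, monocytes 3.58 CPM, T cells 2.70 CPM and B cells 2.46 CPM, and KCs came last of the classes with a UMI. In the pool the second level was 2.99 CPM in B cells, where 1 cell held all 8 UMIs. Hepatocytes of the pool followed plasma cells at 0.998 CPM, monocytes had 0.914 CPM, endothelial cells 0.511 CPM and T cells 0.152 CPM, and the other 8 classes held 0 UMIs. Of the steps between neighbouring classes in this order, only that from neutrophils to the next class had an interval that left out 0, which was 1 of 15 steps in the WT library and 1 of 14 in the pool.

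**Figure D1:**
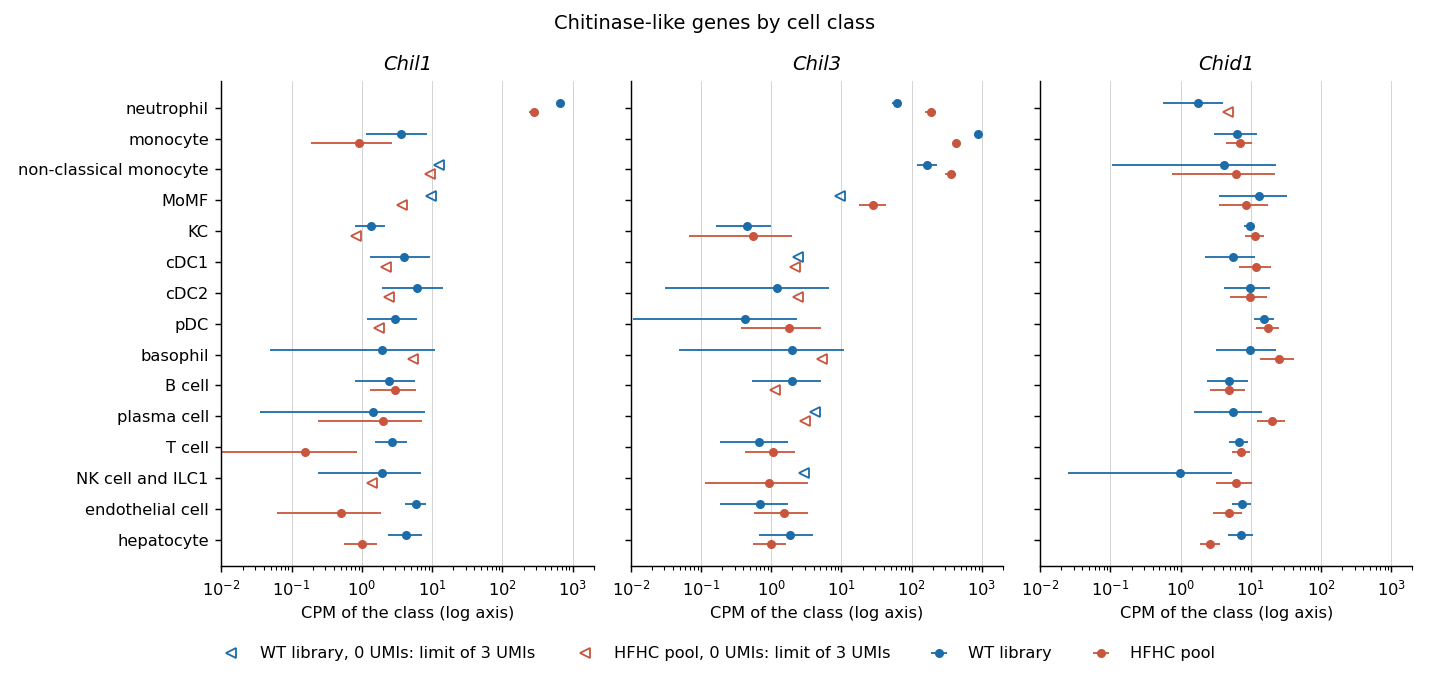
Levels of Chil1, Chil3 and Chid1 by cell class (rows) in CPM on a log axis, with the WT library in blue and the HFHC pool in red. Points are the CPM of the summed UMIs, bars exact Poisson 95% intervals, and open triangles the limit of 3 UMIs where a class held 0. Chil1 stands at 663 and 279 CPM in neutrophils and Chil3 at 864 and 428 CPM in monocytes, while Chid1 has no class above 24.8 CPM.

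The few Chil1 UMIs of other WT classes stood in a similar proportion to S100a8 and S100a9, the calprotectin genes of neutrophils, to that of neutrophils. WT neutrophils held 12.5 Chil1 UMIs per 1000 UMIs of S100a8 plus S100a9 (11.9 to 13.1). The same measure was 14.0 in KCs (8.25 to 22.2), 14.0 in T cells, 13.01 in endothelial cells (9.04 to 18.1), 9.06 in B cells and 8.34 in hepatocytes (4.55 to 14.0). The lowest of the ordered classes with a UMI was 5.55 (2.23 to 11.5) in plasmacytoid dendritic cells (pDCs), the only one of these classes whose interval ended below that of neutrophils. Among the 18 WT KCs with a Chil1 UMI, 9 also held an S100a8 or S100a9 UMI, against 29.996% of all WT KCs. Of the 20 endothelial cells with a Chil1 UMI, 18 did, against 18.7% of that class. In the pool the proportion was not kept in every class. It was 7.21 (6.19 to 8.36) in neutrophils, 26.2 (14.6 to 43.5) in hepatocytes, 229 (91.6 to 502) in B cells and 286 (29.0 to 1501) in plasma cells. The last 3 values rested on 15, 8 and 2 Chil1 UMIs, and the intervals of pool monocytes, endothelial cells and T cells overlapped that of neutrophils. S100a8 and S100a9 stood at 96.4 to 532 CPM in the ordered WT classes other than neutrophils, and at 3.67 to 143 CPM in those of the pool. How much of the Chil1 in these classes came from free RNA or from captured neutrophils was not tested. Chil3 did not keep such a proportion, with 1961 UMIs per 1000 of S100a8 plus S100a9 in WT monocytes against 1.16 in WT neutrophils.

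At equal depth, a Chil1 UMI was found in 41.4% of WT neutrophils (38.7 to 44.1%) and in 10.96% of those of the pool (7.62 to 15.1%), with each cell thinned to 1000 UMIs. Thinning left out 1411 of the WT neutrophils and none of those of the pool. The thinned share in the WT library was 0.205% in KCs, 0.193% in B cells, 0.242% in T cells and 0.349% in hepatocytes. In the pool it was 0 of 385 KCs, which allows a share of up to 0.779%, and it was 0.118% in B cells, 0 of 1762 T cells and 0.0391% in hepatocytes. The interval of WT KCs (0.0665 to 0.477%) overlapped those of both B and T cells, which were chosen for comparison. Unthinned, a Chil1 UMI was found in 37.3% of WT neutrophils, whose median depth was 987 UMIs, and in 17.8% of those of the pool, with a median of 2060 UMIs. The median depth was 4515 and 9960.5 UMIs in KCs and 1317 and 2642.5 UMIs in B cells.

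Chil1 was higher in both libraries in the neutrophils ordered as less mature by their granule transcripts. Neutrophils were ordered by the share of secondary granule transcripts (Ngp, Camp, Ltf, Lcn2, Fcnb, Cd177, Itgb2l and Mmp8, genes of granules formed before a neutrophil leaves the marrow) in these plus late transcripts (Cxcr2, Csf3r, Il1b, Ccl6 and Msrb1), and cut into tertiles within each library. Mmp8 had 8498 UMIs and Lcn2 5609 in WT neutrophils, against 735 of Ngp, so that the granule side of the WT order rested mostly on Mmp8 and Lcn2. In the pool Lcn2 had 881 UMIs and Mmp8 453, and the 858 of Ngp lay in 3 cells. Chil1 stood in the WT library at 1028 CPM (967 to 1091) in the least mature tertile, 618 CPM (568 to 670.4) in the middle and 285 CPM (251 to 322) in the most mature. The end tertiles of the WT library differed 3.61-fold (log2 1.85, 1.65 to 2.05), where 2.25% of 2528 genes tested were at least 2-fold higher and 3.52% at least 2-fold lower in the least mature tertile. In the pool the levels were 495 CPM (406 to 596), 138 CPM (89.9 to 202) and 186 CPM (134 to 251), so that the middle and most mature tertiles had overlapping intervals. The end tertiles of the pool differed 2.66-fold (log2 1.41, 0.89 to 1.96), beside 4.02% of 746 genes past 2-fold in that direction and 3.08% in the other. The pool value became 4.35 with whole subclusters ordered by granule share, 0.89 with a mitochondrial limit of 10% and 0.99995 (0.15 to 1.90) without the subcluster led by Acod1. The primary granule genes Mpo, Elane, Prtn3, Ctsg and Ms4a3, which mark promyelocytes, had 4 UMIs or fewer together in every tertile.

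S100a8 and S100a9 had the same order across WT tertiles, at 73116, 52211 and 30876 CPM together. Per 1000 of their UMIs, Chil1 was at 14.1 (13.2 to 14.9), 11.8 (10.9 to 12.8) and 9.23 (8.12 to 10.4) in the WT library, so that Chil1 was lower relative to them in the more mature cells. In the pool the values were 8.26 (6.78 to 9.96), 3.73 (2.44 to 5.47) and 9.56 (6.88 to 12.9), with no such order. The granule share of pool neutrophils was low, and its tertiles were cut at 0% and 5.56%, against 6.67% and 21.8% in the WT library, so that 236 of 292 pool cells lay within 5 percentage points of a cut. The same word therefore names different cells in the 2 libraries. Il1b, a cytokine gene among the late transcripts, stood at 16277 CPM in pool neutrophils outside the Acod1-led subcluster. In those of the WT library it stood at 3188 CPM. How far the pool tertiles follow maturity rather than the level of Il1b was not tested.

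**Figure D2:**
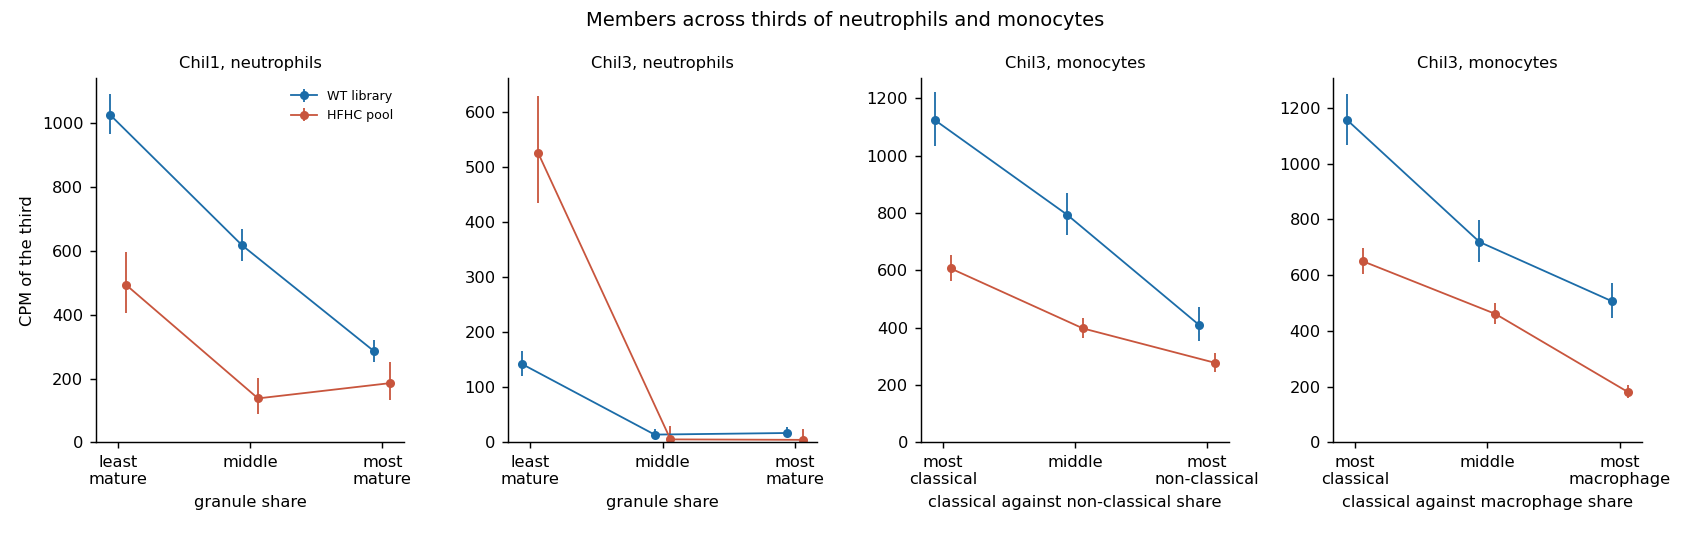
Levels in CPM of Chil1 in neutrophil tertiles and of Chil3 in neutrophil and monocyte tertiles, with the WT library in blue, the HFHC pool in red and exact Poisson 95% intervals as bars. Tertiles run from least to most mature by granule share, and from most classical to most non-classical or most macrophage. Chil1 stands at 1028, 618 and 285 CPM across WT neutrophils, and Chil3 of neutrophils stands at 142 and 526 CPM in the least mature tertile alone.

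Within the neutrophils, the WT cells with the most Chil1 were a subcluster led by Ngp, Retnlg and Mmp8, where 533 cells held 718 UMIs, or 1086 CPM (1008 to 1169), and 62.9% of cells had a UMI. A subcluster led by Gm5483 and Stfa2l1 followed at 820 CPM, with 336 cells. The largest, of 1480 cells, had 487 CPM (452 to 525), and the subcluster led by Trem1 and Ptgs2 had the lowest level, 313 CPM (204.5 to 459), with 78 cells. Leading genes of these subclusters were ranked against cells other than neutrophils, and not against other neutrophils. An Ngp UMI was found in 105 of the 909 cells of the least mature WT tertile. The 3 WT neutrophils with most Chil3 held 320, 155 and 61 of the 735 Ngp UMIs, so that Ngp-led is a label only. Chil1 was spread over many WT neutrophils. Of the 2736 cells, 529 had 1 UMI, 265 had 2, 126 had 3 and 101 had 4 or more, and the highest cell held 8.

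In the pool Chil1 was gathered in few neutrophils. A subcluster of 42 cells led by Acod1, the gene of the itaconate-producing enzyme, together with Cxcl2 and Ptgs2 held 98 of the 178 UMIs, or 912 CPM (741 to 1112). These 98 UMIs lay in 12 cells, with a median of 6 UMIs in each and 23 in the highest, while 30 of the 42 cells held 0. S100a8 stood at 10689 CPM in this subcluster and at 22204 CPM in the other pool neutrophils, and the cells with 20 and 10 Chil1 UMIs held 2 and 3 UMIs of S100a8 and 0 and 2 of S100a9. What these low neutrophil markers mean for the class of these cells was not tested. The other 250 pool neutrophils held 80 UMIs, or 151 CPM (119.7 to 188), and no cell of them exceeded 4. The Acod1-led subcluster also existed in the WT library, where 20 cells held 13 Chil1 UMIs, or 494 CPM (263 to 845), and no cell exceeded 4. Within the pool it stood 5.23-fold above the Trem1-led subcluster (log2 2.39, 1.94 to 2.84), while in the WT library the 2 subclusters were not separated (0.66, -0.43 to 1.67).

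The pool held 113 Chil1 UMIs in 11 cells with 6 or more each. Of these cells, 8 lay in the Acod1-led subcluster, 1 in the B cell class, 1 in the hepatocyte class and 1 among cells outside the mitochondrial limit. All 11 held UMIs of Acod1 (median 13), of the neutrophil-attracting chemokine Cxcl2 (median 52) and of the chemokine Ccl3 (median 20). These genes were also common in the other 250 pool neutrophils, at 762 CPM for Acod1, 5731 CPM for Cxcl2 and 1756 CPM for Ccl3, against 57.4, 434 and 229 CPM in the WT neutrophils outside the Acod1-led subcluster. Of 18 WT cells with 6 or more Chil1 UMIs, 3 held an Acod1 UMI, 6 a Cxcl2 UMI and 1 a Ccl3 UMI. The highest of these WT cells lay outside the mitochondrial limit and held 26 Chil1 UMIs, more than any cell of the pool. It also held 23 UMIs of Acod1, 18 of Cxcl2 and 2 of Ccl3, so that a cell of this kind was found in the WT library too. The median mitochondrial share was 3.76% in the Acod1-led subcluster of the pool and 0.694% in the other pool neutrophils. Acod1, Cxcl2 and Ccl3 were chosen after their values were seen, and the genotype of these cells was not known.

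Chil1 in neutrophils was lower in the pool than in the WT library. The log2 ratio of the pool over the WT library was -1.24 (-1.48 to -1.03), and 5.13% of 3741 genes tested in neutrophils were at least 2-fold lower in the pool, while 6.98% were at least 2-fold higher. The pool holds cells of Chil1-/- mice that the table does not mark, which cannot be told apart from a lower level per WT cell. The libraries also differed in the kinds of neutrophils they held. The Trem1-led subcluster made up 209 of 292 pool cells but 78 of 2736 WT cells, and the Ngp-led one, rich in Chil1 in the WT library, 5 and 533 cells, so that the ratio over all neutrophils combines their makeup and their levels. The ratio was -0.84 (-1.50 to -0.14) in the Trem1-led subcluster and -3.51 (-5.81 to -1.91) in one led by Slfn4, where the pool held 3 UMIs. In the Acod1-led subcluster it was 0.89 (0.045 to 1.84), and without that subcluster the ratio of all neutrophils was -2.14.

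Chil3 was a gene of monocytes in both libraries. The 347 WT monocytes held 1208 UMIs, or 864 CPM (816 to 914), and 48.4% of the cells had a UMI. In the pool 510 monocytes held 1405 UMIs, or 428 CPM (406 to 451), and 37.5% of the cells had a UMI. The level was 144-fold that of all other named cells in the WT library (log2 7.17, 6.97 to 7.37) and 61.4-fold in the pool (5.94, 5.76 to 6.13). Over the alternatives the log2 ratio ran from 6.75 to 7.75 in the WT library and from 5.22 to 7.02 in the pool. With cells thinned to 1000 UMIs, the shares were 36.3% (31.2 to 41.7%) and 23.1% (19.5 to 27.0%), against 0.193% and 0 of 844 in B cells, 0.0806% and 0.114% in T cells, and 0 of 1146 and 0.117% in hepatocytes. The median depth of monocytes was 3709 and 6358.5 UMIs.

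The next levels of Chil3 were also myeloid. Non-classical monocytes, the patrolling form, had 166 CPM (119 to 226) in the WT library and 358 CPM (296 to 429.5) in the pool. The monocyte class, which joins a classical cluster and one led by Ly6i, stood 5.21-fold above them in the WT library (log2 2.38, 1.93 to 2.87). In the pool the 2 classes were not separated (0.26, -0.017 to 0.54). There the classical cluster had 906 CPM and the Ly6i-led one 166 CPM, the latter below non-classical monocytes (log2 -1.11, -1.41 to -0.79). Neutrophils followed in both libraries, at 61.4 CPM (52.7 to 71.2) and 187 CPM (155 to 223). Most of their UMIs lay in 3 cells of each library, and the other neutrophils stood at 14.0 and 4.82 CPM. MoMFs held 0 Chil3 UMIs in 87 WT cells, which allows up to 9.67 CPM, and 23 UMIs in 5 of 98 pool cells, or 28.4 CPM (18.03 to 42.7). With own-marker classes over all deposited cells, MoMFs held 78 Chil3 UMIs in the WT library, or 149 CPM (118 to 186), and 83 in the pool, or 15.5 CPM (12.4 to 19.2), so that the order of the libraries was the other one. KCs held 6 UMIs in 2 of 2697 WT cells and 2 UMIs in 2 of 398 pool cells, or 0.449 and 0.550 CPM, and monocytes stood 1926-fold above them in the WT library. All other ordered classes had 14.3 CPM or less in the WT library, the highest being 5 UMIs in a single cholangiocyte-class cell, and 1.77 CPM or less in the pool. Of the steps between neighbouring classes, 4 of 15 in the WT library and 3 of 14 in the pool had intervals that left out 0, all of them among the highest classes. The WT step from the cholangiocyte class to B cells was among these and rested on the 5 UMIs of a single cell.

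Chil3 was highest in the monocytes with a classical profile. The monocytes formed 2 clusters, one led by Cd177, F13a1, Vcan and Ly6c2, genes of classical monocytes, and one led by Ly6i, Acod1, Clec4e and the interferon-induced chemokine Cxcl9. The classical cluster had 1296 CPM (1208 to 1388) in the WT library and 906 CPM (852 to 962) in the pool. The Ly6i-led cluster had 511 CPM (462 to 564) and 166 CPM (149 to 185). The classical cluster stood 2.54-fold above it in the WT library (log2 1.34, 1.17 to 1.52) and 5.44-fold in the pool (2.44, 2.27 to 2.62). Chil3 was detected in 60.6% and 58.5% of the cells of the classical cluster and in 35.3% and 23.9% of those of the Ly6i-led cluster. The highest monocyte held 46 UMIs in the WT library and 39 in the pool, and the highest 34 WT cells and 51 pool cells held 56.8% and 62.8% of the UMIs.

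Ordering all monocytes by their share of classical against non-classical transcripts gave the same direction. Chil3 stood in the WT library at 1124, 794 and 409 CPM from the most classical to the most non-classical tertile, with intervals that did not overlap (log2 ratio of the ends 1.46, 1.22 to 1.70, and 3.50 without the Ly6i-led cluster). In the pool the levels were 606, 397 and 277 CPM (1.13, 0.94 to 1.33). The median classical share of the most non-classical tertile was 6.07% in the WT library and 42.9% in the pool, so that the word names different cells there too. The 191 pool cells of this tertile stood below the 73 cells of the pool's non-classical class, which had 358 CPM. Of the 1705 genes tested in the WT library, 4.52% were at least 2-fold higher and 3.81% at least 2-fold lower in the most classical tertile. Of 3639 in the pool, 2.01% were higher and 2.2% lower past 2-fold. Ly6c2, which is among the genes that set this order, went from 3059 to 163 CPM in the WT library and from 2366 to 438 CPM in the pool. Ordering by classical against macrophage transcripts (C1qa, C1qb, C1qc, Apoe, Ms4a7 and Adgre1) gave 1157, 719 and 507 CPM in the WT library (log2 1.19, 0.98 to 1.41) and 649.6, 461 and 181 CPM in the pool (1.84, 1.62 to 2.07). Without the Ly6i-led cluster these ratios were 1.76 and 1.30. Beside these, 3.42% of 1813 genes in the WT library and 2.39% of 3680 in the pool were past 2-fold in that direction, and 3.64% and 2.74% in the other. The Chil3 level was thus lowest in the most macrophage tertile. C1qa, which is among the genes that set this order, went from 13.1 to 169 CPM in the WT library and from 8.54 to 202 CPM in the pool. In that tertile only 27 of 134 WT cells and 52 of 188 pool cells held a C1qa UMI. Ace, a leading gene of the non-classical monocytes, was found in 77 and 102 of them, against 10 of 133 and 56 of 185 in the most classical tertile. The 2 orders therefore overlapped, and a fall of Chil3 towards macrophages alone was not tested.

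Chil3 was lower in monocytes of the pool than of the WT library, with a log2 ratio of -1.01 (-1.13 to -0.90), where 2.71% of 5654 genes were at least 2-fold lower and 3.25% at least 2-fold higher. The ratio was -0.52 (-0.65 to -0.38) in the classical cluster and -1.62 (-1.83 to -1.41) in the Ly6i-led one, which made up more of the pool's monocytes, 310 of 510 against 167 of 347. In non-classical monocytes the ratio had the other sign, 1.09 (0.58 to 1.67), beside 4.7% of 957 genes at least 2-fold higher and 2.4% at least 2-fold lower in the pool, and it rested on 40 and 116 UMIs. Whether the 2 ratios differ between mice could not be tested with 1 library each.

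In neutrophils Chil3 lay almost wholly in a handful of cells, in contrast to Chil1. Of the 176 Chil3 UMIs of WT neutrophils, 136 lay in 3 cells, with 119, 12 and 5 UMIs. Of the 119 UMIs of pool neutrophils, 116 lay in 3 cells, with 84, 22 and 10 UMIs. All 6 cells lay in the Ngp-led subcluster and held 61 to 398 UMIs of Ngp, as well as UMIs of Camp, Ltf and Lcn2, and none held a UMI of Mpo or was called a doublet. The WT cell with 119 UMIs also held 6 UMIs of Mki67 and 11 of Top2a, genes of dividing cells. The other 2733 WT neutrophils stood at 14.0 CPM (10.01 to 19.1) and the other 289 of the pool at 4.82 CPM (0.995 to 14.1). Chil1, in comparison, had 1.16% of its UMIs in the 3 highest WT neutrophils and 29.8% in the 3 highest of the pool.

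The tertiles of neutrophils therefore rested on these cells for Chil3. The WT levels were 142 CPM (120.1 to 167) in the least mature tertile, 14.0 CPM in the middle and 16.9 CPM in the most mature (log2 ratio of the ends 3.07, 2.30 to 3.95). In the pool they were 526 CPM (435 to 630.4), 5.30 CPM and 4.42 CPM (6.89, 4.39 to 12.2), the last 2 being 1 UMI each. Without the Ngp-led subcluster the ratios were -0.39 in the WT library and 0.090 in the pool. The ratio of the pool over the WT library in all neutrophils was 1.61 (1.26 to 1.95), and it was -1.71 without that subcluster, so that its sign was set by these few cells.

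**Figure D3:**
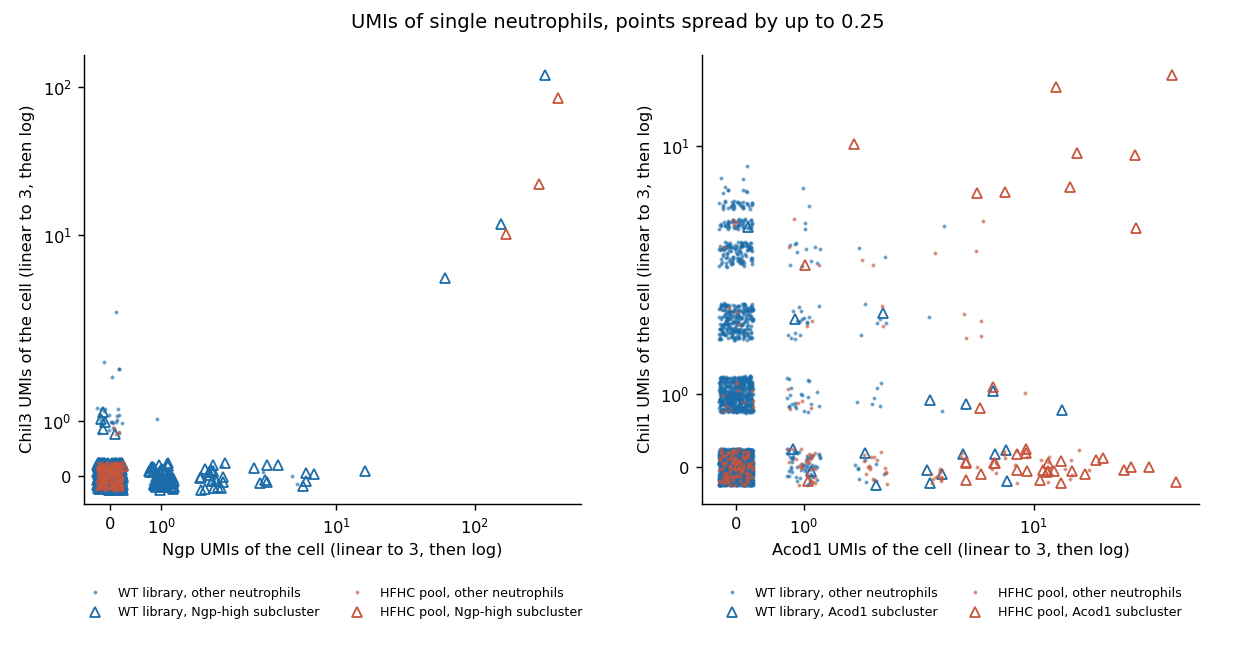
UMIs of single neutrophils, Chil3 against Ngp (left) and Chil1 against Acod1 (right), on axes that are linear to 3 and logarithmic above, with small random shifts. Open triangles are cells of the Ngp-led (left) or Acod1-led (right) subcluster, and dots other neutrophils, in blue for the WT library and red for the HFHC pool. The 6 cells with 5 or more Chil3 UMIs are all rich in Ngp, and the pool cells with 6 or more Chil1 UMIs all hold Acod1.

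Chid1 was found at a low level in nearly every class. In the WT library it ranged from 0.971 CPM in natural killer cells to 15.6 CPM (10.99 to 21.5) in pDCs, where 37 UMIs lay in 35 of 727 cells. In the pool it ranged from 0 in neutrophils to 24.8 CPM (13.6 to 41.6) in basophils, with plasma cells at 19.9 CPM (12.1 to 30.7) and pDCs at 17.7 CPM (11.9 to 25.3). No step between neighbouring classes had an interval that left out 0 in either library. Among classes further apart, pDCs stood above T cells by 1.21 (0.52 to 1.89) in the WT library and by 1.27 (0.57 to 1.96) in the pool on the log2 scale. No cell of any class held more than 5 Chid1 UMIs.

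KCs were slightly above the average of the other classes for Chid1. WT KCs held 129 UMIs in 123 of 2697 cells, or 9.64 CPM (8.05 to 11.5), and pool KCs held 42 UMIs in 35 of 398 cells, or 11.5 CPM (8.32 to 15.6). Against all other named cells, the log2 ratio was 0.46 (0.13 to 0.78) in the WT library and 0.90 (0.39 to 1.37) in the pool, where it was 0.57 (-1.71 to 2.14) without integration, an interval that held 0. Against hepatocytes it was 0.40 (-0.24 to 1.09) in the WT library and 2.12 (1.46 to 2.78) in the pool, where 9039 hepatocyte-class cells, the largest class there, stood at 2.66 CPM. Neutrophils were low in Chid1. They held 5 UMIs in the WT library, or 1.74 CPM (0.566 to 4.07), with a log2 ratio of -2.25 (-3.88 to -1.01) against the other named cells, and 0 UMIs in 292 cells of the pool, which allows up to 4.71 CPM. The ratio of the pool over the WT library in KCs was 0.28 (-0.28 to 0.77), and 3.71% of 8876 genes were at least 2-fold higher and 3.92% at least 2-fold lower there. At a thinned depth of 1000 UMIs, Chid1 was found in 0.901% of WT KCs, 0.387% of B cells and 0.766% of T cells, a level of detection near that of a single UMI.

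The genes with the pattern most like each member were sought over 31 pairs of class and library with at least 50 cells, among 13306 genes, by Pearson's r of log2(CPM + 1). These pairs share libraries, depths and free RNA, and the values are a description. For Chil1 they were Ceacam10 (0.947), Asprv1 (0.939), Gm17455 (0.930), Sycp2 (0.928) and Gm5483 (0.928). For Chil3 they were Clec4e, a receptor of mycobacterial glycolipid (0.883), Trem3 (0.856), Gm9733 (0.802), Slc16a3, a lactate exporter (0.7996), and Cd177 (0.789). For Chid1 the likeness was weaker, with Lmf1 at 0.786, followed by Bckdk, Gmpr2, Yipf5 and Ggcx down to 0.756.

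The other glycoside hydrolase 18 genes were rare in these cells, apart from a pair. Of the 7 on the list, Chia1, the acidic chitinase, had 1 UMI in the kept cells of each library, Chil4 had 0 and 1, and Chit1, the macrophage chitinase, had 3 and 7. Chil6 had 0 UMIs in the WT library and no column in the pool. Chil5 had 29 and 73 UMIs, and its highest level was 7.80 CPM in basophils of the WT library and 14.0 CPM in conventional dendritic cells of the first type in the pool. Ctbs, the lysosomal chitobiase, was highest in MoMFs of both libraries, at 48.3 and 37.1 CPM. Ovgp1, the oviductal glycoprotein gene, was highest in neutrophils of both, at 54.4 and 45.5 CPM, with a log2 ratio of the pool over the WT library of -0.22 (-0.88 to 0.32).

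The receptors and binding partners of chitinase-like proteins were highest in several classes, among them neutrophils and monocytes. Il13ra2, a receptor of Chi3l1, was highest in endothelial cells, at 92.1 and 62.9 CPM, and its co-receptor Tmem219 was found in every ordered class. Stab1, the receptor that binds the Chid1 protein, was also highest in endothelial cells, at 1651 and 1111 CPM, and stood at 116 and 73.9 CPM in KCs. Cd44 was highest in neutrophils, at 1839 and 1998 CPM, and Lgals3, the gene of galectin-3, in monocytes, at 2144 and 1566 CPM. Ager, the gene of the receptor RAGE, reached 15.0 and 6.27 CPM in neutrophils, Sdc1 was highest in hepatocytes of the WT library and in plasma cells of the pool, and Ptgdr2 had 0 and 6 UMIs in all. In neutrophils 3 of these 8 genes had at least 100 UMIs, of which Tmem219 was at least 2-fold lower in the pool (-1.11, with 15 UMIs there), beside 5.13% of all neutrophil genes, with a median log2 ratio of -0.96 against -0.0011 over all genes. Tmem219 had 154 UMIs in WT neutrophils, so that it reached 100 UMIs only through the WT library. In monocytes 3 of the 8 had enough UMIs and none was past 2-fold, beside 3.25% of all monocyte genes higher and 2.71% lower, with a median of -0.45 against 0.011. In hepatocytes 5 had enough UMIs, and Cd44 (-1.57), Stab1 (-1.25), Sdc1 (-1.24) and Lgals3 (-1.08) were at least 2-fold lower in the pool, beside 8.07% of 8815 genes lower and 6.82% higher, with a median of -1.24 against 0.15. In WT hepatocytes Cd44 had 48.6, Lgals3 34.2 and Stab1 22.9 CPM, far below their highest classes, while Sdc1 was highest there at 30.2 CPM. S100a8 plus S100a9 had 512 CPM in hepatocytes of the WT library and 38.1 CPM in those of the pool. How much of the 4 genes' UMIs was free RNA was not tested. In the remaining classes the ratios farthest from 0 were those of Sdc1 (3.43) and Lgals3 (-1.81) in plasma cells, where the median over all genes was -0.39. Sdc1 had 7 UMIs there in the WT library and 122 in the pool, so that it reached 100 UMIs only through the pool.

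The secondary granule genes differed among themselves between the libraries. In neutrophils 6 of 8 had enough UMIs, and Ltf (3.12), Ngp (2.39) and Camp (2.002) were at least 2-fold higher in the pool and Mmp8 (-2.06) at least 2-fold lower, with a median of 1.14, beside 6.98% of all neutrophil genes higher and 5.13% lower. The 3 pool neutrophils with most Chil3 held all 858 UMIs of Ngp of that class, 114, 77 and 55 of its 249 Ltf UMIs and 63, 18 and 31 of its 113 Camp UMIs. Of the alternative activation genes often measured with Chil3, all 7 had enough UMIs in monocytes, where Ccl24 (-3.34), Mgl2 (-3.23) and Arg1 (-2.08) were at least 2-fold lower in the pool and none was higher past 2-fold, with a median of -0.21, beside 2.71% of all monocyte genes lower and 3.25% higher. These UMIs lay in few monocytes, those of Ccl24 in 33 WT and 11 pool cells, of Mgl2 in 23 and 13, and of Arg1 in 39 and 48. Arg1, which encodes arginase, stood at 213 CPM in the 188 WT monocytes with a Chil3 UMI and at 27.7 CPM in the 259 without, over both monocyte forms. In the pool the direction was the other, with 10.9 CPM in 211 monocytes with a Chil3 UMI and 36.6 CPM in 372 without. Arg1 stood at 2947 and 3059 CPM in hepatocytes of the WT library and the pool, and at 71.0 and 113 CPM in T cells. How much of the Arg1 of monocytes came from free RNA was not tested.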

How the data were processed

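Liver cells of both libraries had been counted by the authors with the BD Rhapsody WTA pipeline (version 1.10.1 per the file headers) on GRCm38 with a GENCODE annotation, and the deposited values were counts of UMIs per gene and cell after RSEC error correction, with no normalization. Cells with 200 to 4000 genes and at most 25% mitochondrial UMIs were clustered with Seurat 5.3.0 (SCTransform and reciprocal PCA integration, with settings taken from the study's methods, in R 4.3.3), without the 3 members among the features. Clusters were named from marker lists, and a cluster that also scored for another type was called mixed and left out; these score limits were set after the clusters were seen. Scrublet (scanpy 1.11.5) called 8.17% and 2.00% of the kept cells doublets, which were kept. UMIs were summed by class and library, and ratios have exact conditional binomial 95% intervals (scipy 1.17.1). Ratios across all genes used those with a sum of 100 UMIs or more, with 1 UMI added, and were marked past 2-fold. Neutrophils and monocytes needed 5 UMIs of the maturity lists to be ordered. Ratios were tested on simulated data. The members and lists were chosen with earlier results of these data known. Named were the members, the genes of the lists, the markers, and the 5 genes most like each member; genes leading a subcluster, S100a8, S100a9, Acod1, Cxcl2, Ccl3, Mki67 and Top2a were named after values were seen. Mitochondrial limits, doublets, resolution, integration, class rules, scaling, thinning and left-out subclusters were varied. The sample of tag reads was not analysed here.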

Additional observations from a re-analysis of the deposited data

Results flagged for a closer look

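The difference between the least and the most mature neutrophils in Chil3 had a log2 ratio of 3.07 in the WT library and of 6.89 in the HFHC pool, and that between the most classical and the most macrophage-like monocytes was 1.19 and 1.84. These are listed because the counting intervals of the 2 libraries did not overlap. With 1 library each, the difference between libraries was not tested.

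UMIs of the members were also found in cells that entered no comparison, namely cells outside the gene or mitochondrial limits, cells of mixed clusters and cells of unnamed clusters. Chil1 had 64, 376 and 47 UMIs there in the WT library, and 21 UMIs outside the limits and 20 in mixed clusters of the pool. In the WT library 26 of the 64 Chil1 UMIs outside the limits lay in 1 cell with 28.8% mitochondrial UMIs. Chil3 had 9, 31 and 10 UMIs in these 3 sets in the WT library and 83, 201 and 14 in the pool. Chid1 had 32, 43 and 20 in the WT library and 220, 9 and 17 in the pool. The 220 UMIs of Chid1 lay in cells outside the limits, of which 814 in the pool had more than 4000 genes. Each of these counts is above the limit of 3 that a count of 0 allows.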

How the results depend on the processing

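Of 137 alternative values for 26 results, 92 stayed within the spread that counting allows, 43 moved beyond it and 2 changed sign. All values here are log2 ratios unless named as shares. For Chil1 in neutrophils over other named cells, the WT value of 7.79 became 8.57 without called doublets, 6.95 at a resolution of 1.0, 6.80 without integration, 6.83 with classes from each cell's own markers, 6.89 with those classes over all deposited cells and 7.45 with mixed neutrophil clusters kept. The pool value of 8.65 became 9.29 without integration, 6.73 with own-marker classes and 7.18 over all deposited cells. For Chil3 in monocytes over other named cells, the WT value of 7.17 became 6.75 without integration, 6.86 with own-marker classes, 6.93 over all deposited cells, 7.46 as a mean of per-cell CPM and 7.75 without the Ly6i-led cluster. The pool value of 5.94 became 6.57 at a resolution of 1.0, 6.58 without integration, 5.22 with own-marker classes, 5.71 over all deposited cells, 6.74 per cell and 7.02 without the Ly6i-led cluster. Chid1 in KCs over other cells moved from 0.90 to 1.47 per cell in the pool. Chil1 across pool neutrophil maturity moved from 1.41 to 4.35 with subclusters ordered by granule share and to 0.89 with a mitochondrial limit of 10%. Chil3 across WT neutrophil maturity moved from 3.07 to 1.83 with ordered subclusters and to 1.47 per cell, and changed sign to -0.39 without the Ngp-led subcluster, which took the pool value of 6.89 to 0.090. Chil3 from classical to non-classical WT monocytes moved from 1.46 to 1.71 per cell and 3.50 without the Ly6i-led cluster, and to macrophage-like ones from 1.19 to 1.42 and 1.76, and in the pool from 1.84 to 1.30 without that cluster. For the pool over the WT library, Chil1 in neutrophils moved from -1.24 to -0.90 without the Ngp-led and -2.14 without the Acod1-led subcluster, Chil3 in neutrophils changed sign from 1.61 to -1.71 without the Ngp-led one, and Chil3 in monocytes moved from -1.01 to -0.52 without the Ly6i-led cluster. The share of neutrophils with a Chil1 UMI was 37.3% without thinning and 24.0% at 500 UMIs in the WT library, and 17.8% without thinning in the pool. That of WT KCs was 0.667% and 0.0379%. The share of monocytes with a Chil3 UMI was 48.4% and 24.5% in the WT library and 37.5% and 14.9% in the pool. Leaving out subclusters and keeping mixed clusters were chosen after seeing the data. Beyond the alternatives' own construction, the cause of these moves was not tested.

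No paired analysis was possible because each group was 1 library and no result comes from a test between replicates. The intervals leave out the spread between mice and between cells. Depth limits what can be said of small classes, since 0 Chil1 UMIs in WT MoMFs allows 9.67 CPM, and own-marker classes over all deposited cells gave 17.2 CPM.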

Other observations

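Retnla, often measured with Chil3 as a gene of alternative activation, lay in single cells. In the WT library 298 of the 301 Retnla UMIs of monocytes lay in 1 cell, as did all 434 of MoMFs, and in the pool 1 monocyte held all 1068 and 1 KC held 111 of 112. Ccl24, a chemokine of eosinophils, stood at 49.9 CPM in WT monocytes with a Chil3 UMI and at 276 CPM in those without, and at 3.90 and 26.7 CPM in the pool. Mgl2, a lectin gene of macrophages and dendritic cells, stood at 11.4 and 118 CPM in the WT library and had 0 UMIs against 12.5 CPM in the pool. Ly6c2 had the other order, with 2176 CPM in WT monocytes with a Chil3 UMI and 1156 CPM in those without, and 1683 and 1185 CPM in the pool. These are values over both monocyte forms of 1 library each, with no test.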
